A study of Homo sapiens with 9 samples.

Results

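ALPL encodes tissue-nonspecific alkaline phosphatase, and 8 genes that make, move or break down phosphate and pyrophosphate at the cell surface are described here: ALPL, ENPP1, ANKH, NT5E, SLC20A1, SLC20A2, XPR1 and SPP1. They are 8 of the 58735 genes in the count table and were taken by name, in all 9 libraries. ALPL was chosen by its measured fall in level, which was among the largest after MPZL3 knockdown. Its values against the control are therefore a description with no test, and the tests below are on the other 7. OVCAR4 is an established cell line from an ovarian serous adenocarcinoma, and the libraries were made to ask how loss of MPZL3, a membrane protein with an immunoglobulin domain, alters gene expression in ovarian cancer cells. The scr control cells carried a scramble shRNA and have the genotype label WT. The shMPZL3 #1 and shMPZL3 #2 cells each carried a different MPZL3 shRNA and are labelled as a knock-down. All 3 groups received an shRNA lentivirus and puromycin selection, and the paper names pLKO.1 as the vector of the scramble shRNA. No cloning of the transduced cells is described, and each group had 3 biological replicates. Nothing further in the sources says how the replicates were separated, so p-values measure the spread between these 3 libraries a group.

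Pyrophosphate outside the cell blocks the growth of hydroxyapatite, and phosphate promotes it. ENPP1 cuts extracellular ATP into AMP and pyrophosphate, ANKH mediates the release of ATP, from which pyrophosphate is made, from the cell, ALPL splits pyrophosphate into phosphate, and NT5E (CD73) turns AMP into adenosine and phosphate. SLC20A1 and SLC20A2 carry phosphate into the cell with sodium, XPR1 is the phosphate exporter, and SPP1 (osteopontin) is a secreted phosphoprotein that binds mineral. ALPL and NT5E are both held on the cell surface by a GPI anchor.

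To show the DNA next to the start sites of the members whose libraries did not overlap between control and knockdown, the 120 bases upstream of each RefSeq transcription start (GRCh38.p14) are printed 5′ to 3′ on the gene's strand. Capitals mark matches on either strand to the TATA box, searched as TATAAA, and to the GC box, which many promoters of widely expressed genes hold and which was searched as GGGCGG. ALPL has 3 such windows and XPR1, NT5E and SPP1 have 1 each.
ALPL chr1:21508864-21508983 (+): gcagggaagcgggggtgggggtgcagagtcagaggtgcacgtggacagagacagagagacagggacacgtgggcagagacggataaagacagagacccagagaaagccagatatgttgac
ALPL chr1:21509303-21509422 (+): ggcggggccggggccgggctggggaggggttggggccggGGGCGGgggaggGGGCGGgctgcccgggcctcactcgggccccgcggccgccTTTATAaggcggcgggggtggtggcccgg
ALPL chr1:21551150-21551269 (+): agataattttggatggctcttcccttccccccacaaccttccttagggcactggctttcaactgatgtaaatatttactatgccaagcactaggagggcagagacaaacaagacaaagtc
XPR1 chr1:180631902-180632021 (+): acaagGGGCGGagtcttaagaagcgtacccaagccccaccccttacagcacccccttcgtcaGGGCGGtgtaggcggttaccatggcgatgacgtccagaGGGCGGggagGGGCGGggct
NT5E chr6:85449963-85450082 (+): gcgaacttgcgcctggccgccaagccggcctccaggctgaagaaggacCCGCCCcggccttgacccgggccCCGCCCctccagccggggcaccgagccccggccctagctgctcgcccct
SPP1 chr4:87975594-87975713 (+): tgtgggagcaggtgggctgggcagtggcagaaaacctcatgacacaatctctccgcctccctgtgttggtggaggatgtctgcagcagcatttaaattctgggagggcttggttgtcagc
The middle ALPL window held 1 TATA box match, read on the reverse strand, and 2 GC box matches, and the other ALPL windows held neither. The XPR1 window held 4 GC box matches and the NT5E window 2. The SPP1 window held no match. Over 35116 windows of the same length, 5.63% held the TATA box letters and 34.0% the GC box letters. A RUNX motif, searched as TGTGGT, was in 5.3% of all windows, and an AP-1 motif, whose letters are TGACTCA, in 2.34%. Neither was in these 6 windows, and no motif overlapped another kind. The GC content of the ALPL windows was 58.3%, 85.0% and 45.0%, against a median of 60.0% over all windows. By the annotation used for the counts, the last ALPL window and the NT5E window lie inside the gene. The middle ALPL window and the XPR1 and SPP1 windows span the annotated gene start. These matches describe letters only, and the counts do not show which ALPL start was used.

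Depth ran from 15040102 to 27835841 counts a library. MPZL3 itself had 403, 648 and 427 counts in the scr control libraries, 130, 144 and 130 under shMPZL3 #1 and 281, 375 and 361 with shMPZL3 #2. All 6 knockdown counts were under all 3 control counts, with the lowest in shMPZL3 #1. The log2 fold change was −2.17 with shMPZL3 #1 and −0.89 with shMPZL3 #2 (edgeR quasi-likelihood test, Benjamini-Hochberg adjusted p = 1.28e-07 and 0.00044). Epithelial markers PAX8, MUC16, EPCAM, KRT7, KRT8 and KRT18 were detected in all 9 libraries, WT1 was near 0 with at most 13 counts a library, and MSLN was at 2.32 to 3.66 CPM, the count scaled to a common library size with TMM factors. Of 10 markers of other cells, DCN and HBB were at 0 and CD68 had at most 1 count. Their summed level was 27.0 to 37.4 CPM in the controls, against 141 to 204 under shMPZL3 #1 and 47.8 to 50.5 under shMPZL3 #2. COL1A1 and ACTA2, genes that are also expressed in mesenchymal cell states, gave most of it (up to 42.6 and 155 CPM). The part of this difference in the results below was not tested.

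All 8 genes passed the filter on low counts, which kept 16928 genes. The grouped comparison set the 6 knockdown libraries against the 3 controls, and an adjusted p under 0.05 is named a call. Of the 7 genes other than ALPL, 3 were called: NT5E and SPP1 rose and XPR1 fell. Of all genes, 15.9% were called, 9.38% higher and 6.53% lower. With shMPZL3 #1 alone ANKH and NT5E rose and XPR1 fell, against 16.9% of all genes higher, 15.4% lower and 32.3% in either direction. With shMPZL3 #2 alone NT5E and SPP1 rose and XPR1 fell, against 9.53% higher, 5.98% lower and 15.5% in either direction. NT5E and XPR1 were thus called with each shRNA in one direction, as were 6.63% of all genes higher and 3.67% lower. The median log2 fold change of the 7 was 0.10 in the grouped comparison, 0.17 with shMPZL3 #1 and −0.06 with shMPZL3 #2, beside 0.0151, 0.00867 and 0.00343 over all genes. The comparisons share their 3 control libraries.

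**Figure D1:**
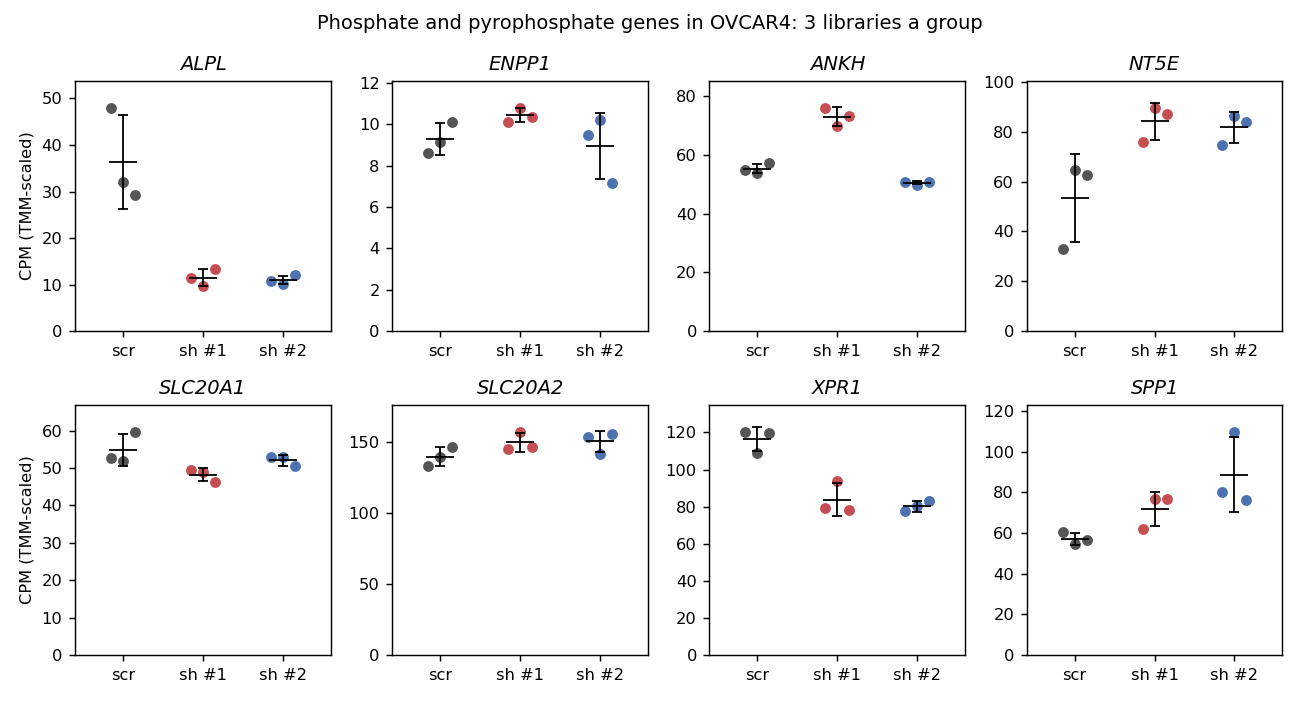
CPM (TMM-scaled, vertical axes from 0) of the 8 genes in each library of OVCAR4; points are libraries, the long dash is the mean of 3 and the bars are 1 SD. ALPL and XPR1 are lower and NT5E and SPP1 higher in all 6 knockdown libraries than in any control, and ANKH is higher with shMPZL3 #1 only.

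ALPL had the lowest knockdown-to-control ratio of the 8 genes. Its level was 48.0, 32.0 and 29.3 CPM in the scr control libraries, 11.5, 9.73 and 13.3 with shMPZL3 #1 and 10.7, 10.2 and 12.0 with shMPZL3 #2. All 6 knockdown libraries lay below the lowest control, and the controls were spread more widely, with replicate 1 the highest. The log2 fold change was −1.70 (SE 0.153) in the grouped comparison, −1.66 (SE 0.175) with shMPZL3 #1 and −1.73 (SE 0.176) with shMPZL3 #2. Without scr control replicate 1 these were −1.46, −1.42 and −1.49. The shRNAs differed in ALPL by −0.07 (shMPZL3 #2 minus shMPZL3 #1, 95% interval −0.44 to 0.31), although MPZL3 itself was 1.28 log2 units higher with shMPZL3 #2. These libraries are bulk RNA, so fewer cells with ALPL and less ALPL RNA in each cell cannot be told apart. The gene (ENSG00000162551, chr1:21509372-21578412, plus strand, hg38) overlaps no other annotated gene.

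ALPL ranked 21 of the 1105 genes called lower by log2 fold change. Among the 558 protein-coding genes with a mean log2 CPM of at least 1 that were called lower with both shRNAs and whose libraries did not overlap, it ranked 1, and the next were FAT3 at −1.53 and PEG10 at −1.49. Both ranks use the ALPL values that picked it, so they restate the choice and test nothing. The choice used no fixed cutoff, so FAT3 and PEG10 are the nearest values on the other side of it.

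The other pyrophosphate genes did not move as a block. ENPP1, the source of extracellular pyrophosphate, had 8.61, 9.14 and 10.1 CPM in scr control, 10.1, 10.8 and 10.4 with shMPZL3 #1 and 9.46, 10.2 and 7.17 with shMPZL3 #2. The shMPZL3 #1 libraries lay at or just above the highest control, and the shMPZL3 #2 libraries overlapped the controls, with replicate 3 the lowest of all 9. Its grouped log2 fold change was 0.06 (95% interval −0.28 to 0.40), not called by edgeR's quasi-likelihood test (Benjamini-Hochberg adjusted p = 0.835).

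ANKH differed between the shRNAs. It had 55.0, 54.0 and 57.2 CPM in scr control, 76.1, 69.8 and 73.3 with shMPZL3 #1 and 50.7, 49.9 and 50.9 with shMPZL3 #2. Every shMPZL3 #1 library was above the controls and every shMPZL3 #2 library was below them, a description given without the share of all genes that separate so. ANKH rose by 0.40 log2 units with shMPZL3 #1 (SE 0.0932; edgeR quasi-likelihood, Benjamini-Hochberg adjusted p = 0.00308), whereas the change with shMPZL3 #2, −0.13, was not called (adjusted p = 0.378). The difference of shMPZL3 #2 from shMPZL3 #1 was itself called at −0.53 (SE 0.093, adjusted p = 0.000809), the one call among the 7 genes in that comparison, in which 15.4% of all genes were called. ANKH kept both calls under every alternative run. A pseudogene of RBBP4 lies in ANKH on the same strand with 551 counts in all libraries, against 11050 for ANKH.

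ALPL stood high or low relative to these genes by group. In RPKM, the CPM divided by the gene's length in kilobases, which allows genes of different length to be compared, the control ratio of ALPL to ENPP1 was 13.2 ± 4.67 (SD, n = 3), against 3.66 ± 0.634 under shMPZL3 #1 and 4.19 ± 1.18 under shMPZL3 #2. The ratio of ALPL to ANKH was 2.79 ± 0.798, 0.664 ± 0.0922 and 0.916 ± 0.0671. ALPL thus had more RNA per kilobase than ANKH in the mean of the controls and less in the mean of either knockdown. The ratios carry the ALPL values that chose the gene and were not tested.

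**Figure D2:**
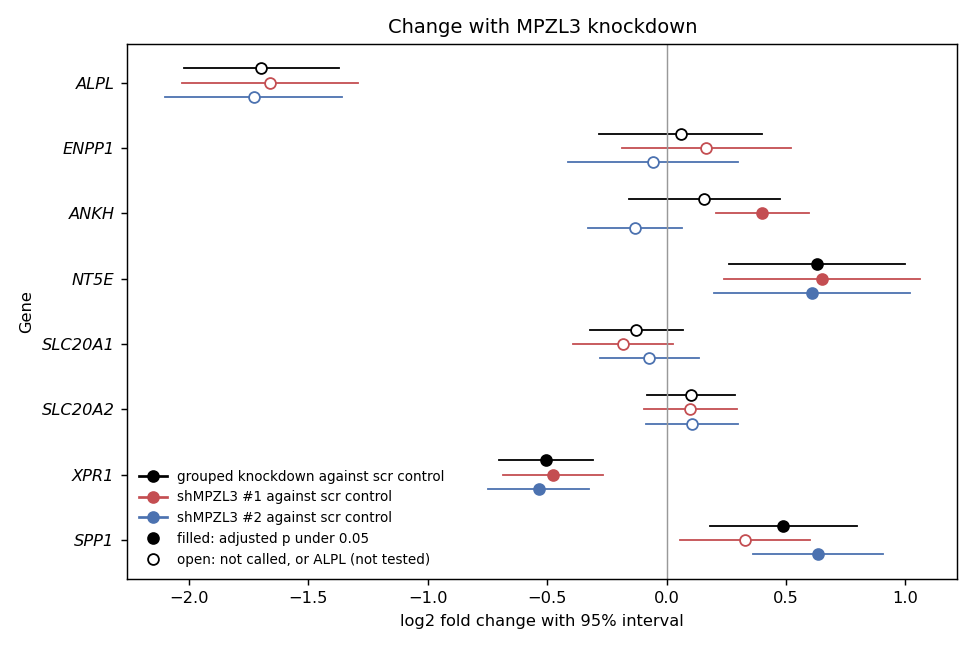
Log2 fold change (horizontal axis) of the 8 genes in the grouped comparison and with each shRNA, with 95% intervals from edgeR; filled points are calls, open points are not, and ALPL is drawn open because it was not tested. XPR1 lies near −0.5 and NT5E near 0.6 in all 3 comparisons, and ANKH is called with shMPZL3 #1 alone.

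NT5E, the other GPI-anchored phosphatase of the set, went up. Its level was 33.0, 64.5 and 62.8 CPM in scr control, 75.7, 89.6 and 87.1 with shMPZL3 #1 and 74.5, 86.4 and 84.1 with shMPZL3 #2. All 6 knockdown libraries were above all controls, and scr control replicate 1, the library highest in ALPL, was well under the other 2 controls. NT5E rose by 0.63 log2 units in the grouped comparison (SE 0.172), 0.65 with shMPZL3 #1 and 0.61 with shMPZL3 #2 (edgeR quasi-likelihood, Benjamini-Hochberg adjusted p = 0.0261, 0.0189 and 0.0461). By an exact permutation test over libraries, the two-sided unadjusted p was 0.0119, the smallest that 6 against 3 allows. Without scr control replicate 1 the grouped change was 0.37 and lost its call (edgeR adjusted p = 0.0898), and the shMPZL3 #2 change was 0.35 (adjusted p = 0.0793). The shMPZL3 #1 change then was 0.40 and kept its call (0.0231). The call with shMPZL3 #1 was lost without shMPZL3 #1 replicate 2 or 3 or shMPZL3 #2 replicate 2 (edgeR adjusted p = 0.111, 0.0783 and 0.0681), and that with shMPZL3 #2 also without shMPZL3 #1 replicate 2 or 3 (0.112 and 0.0727) or any shMPZL3 #2 replicate (0.0797, 0.179 and 0.13).

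XPR1, the exporter, was lower by a like amount with each shRNA. Its level was 120.5, 109 and 119.6 CPM in scr control, 79.1, 94.1 and 78.0 with shMPZL3 #1 and 77.4, 80.1 and 83.2 with shMPZL3 #2. No knockdown library reached the lowest control, and shMPZL3 #1 replicate 2 was the nearest to it. XPR1 fell by 0.51 log2 units in the grouped comparison (SE 0.0917), 0.47 with shMPZL3 #1 (SE 0.1) and 0.54 with shMPZL3 #2 (SE 0.1), with edgeR Benjamini-Hochberg adjusted p of 0.00314, 0.00143 and 0.0012. The shRNAs differed by −0.06 (adjusted p = 0.738). The exact permutation p over libraries was 0.0119 (unadjusted), and no alternative run ended the edgeR calls.

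The sodium-dependent importers showed no call. SLC20A1 was at 52.7, 51.9 and 59.8 CPM in scr control, 49.5, 49.0 and 46.3 with shMPZL3 #1 and 53.0, 53.0 and 50.4 with shMPZL3 #2. The shMPZL3 #1 libraries lay below the controls and the shMPZL3 #2 libraries overlapped them. Its grouped log2 fold change was −0.13 (95% interval −0.32 to 0.07; edgeR adjusted p = 0.373; exact permutation p = 0.0952). SLC20A2 was at 133, 139 and 147 CPM in scr control, 145, 157 and 147 with shMPZL3 #1 and 154, 142 and 155 with shMPZL3 #2. The groups overlapped through scr control replicate 3. Its grouped log2 fold change was 0.10 (95% interval −0.08 to 0.29; edgeR adjusted p = 0.448), and the exact permutation p, not adjusted for the other genes, was 0.0476. SMIM19, on the opposite strand, shares part of SLC20A2 and had 1676 counts against 27195, which these non-directional libraries cannot separate where they overlap.

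SPP1 went up, more with shMPZL3 #2 in the point estimates. Its level was 60.4, 54.4 and 56.8 CPM in scr control, 62.1, 76.6 and 76.7 with shMPZL3 #1 and 80.4, 110 and 76.1 with shMPZL3 #2. All 6 knockdown libraries exceeded the controls, although shMPZL3 #1 replicate 1 did so narrowly and shMPZL3 #2 replicate 2 was far above the rest. SPP1 rose by 0.49 log2 units in the grouped comparison (SE 0.143; edgeR Benjamini-Hochberg adjusted p = 0.0337) and 0.63 with shMPZL3 #2 (SE 0.13, adjusted p = 0.00264). The value with shMPZL3 #1 was 0.33 (adjusted p = 0.0615), and the difference between the shRNAs, 0.31, was not called (adjusted p = 0.117). The exact permutation p was 0.0119 (unadjusted). The grouped call was lost without scr control replicate 1, 2 or 3 (edgeR adjusted p = 0.106, 0.136 and 0.109), and the shMPZL3 #1 value was called without shMPZL3 #1 replicate 1 (0.0199) or shMPZL3 #2 replicate 2 or 3 (0.0185 and 0.043), and also under upper-quartile scaling (0.0419), with no filter (0.0318), with a minimum of 10 counts (0.0365) and with a replicate block (0.0225).

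Over all genes, 11.8% had all 6 knockdown libraries above all 3 controls and 11% had all 6 below. NT5E and SPP1 were of the former kind and XPR1 of the latter, as was ALPL by its choice. No such share is given for the libraries of a single shRNA against the controls. Where ANKH, SLC20A1 or SLC34A2 is said to lie apart with a single shRNA, that describes these libraries only.

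Set against each other per kilobase, the control levels ran from SPP1 at 24.6 ± 1.30 RPKM (SD, n = 3) and SLC20A2 at 21.0 ± 1.03 down to ENPP1 at 0.932 ± 0.0763. XPR1 (13.1 ± 0.715), ALPL (12.1 ± 3.35), NT5E (11.8 ± 3.92) and SLC20A1 (9.83 ± 0.778) stood between them, and each of these 4 lay within the larger SD of the next in the order. ANKH was lower at 4.36 ± 0.129, and the remaining neighbours were further apart than their SDs. With knockdown, ALPL moved from its place behind XPR1 to the lowest but ENPP1. With shMPZL3 #1 it was at 3.82 ± 0.596 RPKM, clearly below ANKH at 5.75 ± 0.249. With shMPZL3 #2 it was at 3.65 ± 0.300, just below ANKH at 3.98 ± 0.0416. NT5E moved to the place behind SPP1 and SLC20A2, at 18.6 ± 1.63 and 18.0 ± 1.39. With shMPZL3 #2 the libraries' ALPL and ANKH levels overlapped.

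**Figure D3:**
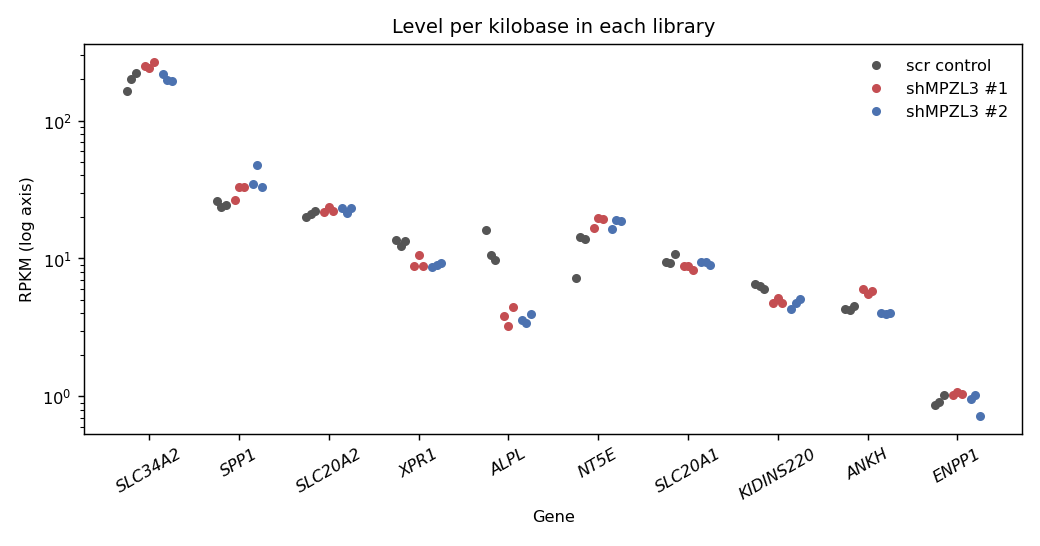
RPKM (log axis) in each library for the 8 genes and for SLC34A2 and KIDINS220; each point is 1 library and the colours are the 3 groups. SLC34A2 is the highest throughout, and ALPL drops from among XPR1, NT5E and SLC20A1 to below ANKH with shMPZL3 #1 and to about its level with shMPZL3 #2.

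SLC34A2, the sodium phosphate cotransporter of secretory epithelia, had the highest level among the phosphate transporters measured, 195 RPKM in scr control, rank 122 of 13651 protein-coding genes, against rank 2195 for SLC20A2. It was at 821, 1014 and 1115 CPM in scr control, 1254, 1218 and 1348 with shMPZL3 #1 and 1089, 999.5 and 972 with shMPZL3 #2. The shMPZL3 #1 libraries were above the controls and the shMPZL3 #2 libraries lay among them. SLC34A2 rose by 0.37 log2 units with shMPZL3 #1 (edgeR Benjamini-Hochberg adjusted p = 0.0155), while the grouped value of 0.22 (adjusted p = 0.272) and the difference between the shRNAs of −0.32 (adjusted p = 0.0586) were not called. Leaving out scr control replicate 1 brought the shMPZL3 #1 value to 0.25 and ended its call (edgeR adjusted p = 0.122), and leaving out shMPZL3 #1 replicate 3 ended it as well (0.0566). The difference between the shRNAs was called when scr control replicate 1 was left out (0.0405), and also under upper-quartile scaling (0.0399), by DESeq2 (0.023), with no filter (0.0416), with a minimum of 10 counts (0.0454) and with a replicate block (0.0188). KIDINS220, a scaffold protein that pairs with XPR1 in phosphate export, was at 99.7, 96.7 and 91.8 CPM in scr control, 72.6, 79.0 and 73.6 with shMPZL3 #1 and 66.5, 73.3 and 77.6 with shMPZL3 #2. Like XPR1 it had no knockdown library as high as any control. KIDINS220 fell by 0.38 log2 units in the grouped comparison (SE 0.0875), 0.36 with shMPZL3 #1 and 0.41 with shMPZL3 #2 (edgeR adjusted p = 0.0114, 0.00847 and 0.00756). The grouped call was lost without scr control replicate 1 or 2 (adjusted p = 0.0773 and 0.0619).

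The other alkaline phosphatases were barely detected. ALPP, the placental form, had 28 to 101 counts a library, ALPG, the germ cell form, had 18 to 57, and ALPI, the intestinal form, had 0 in all 9. The grouped log2 fold changes were −0.07 for ALPP and 0.07 for ALPG (edgeR adjusted p = 0.905 and 0.906). ALPP was 0.95 log2 units higher with shMPZL3 #2 than with shMPZL3 #1 (edgeR adjusted p = 0.0324), a call lost without shMPZL3 #1 replicate 1 or 3 (0.0882 and 0.119) or shMPZL3 #2 replicate 1 or 3 (0.0635 and 0.151). Since ALPP and ALPG are near-identical copies, their counts are uncertain. In scr control ALPL had 12.1 RPKM, ALPP 0.817 and ALPG 0.669.

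A wider list of 86 symbols around phosphate, pyrophosphate and mineral had 85 in the table and 64 tested. In the grouped comparison 9 of the 64 rose, 6 fell and 49 were not called, against the 9.38% and 6.53% of all genes given above, and their median log2 fold change was −0.05. With shMPZL3 #1, 17 rose and 11 fell, against 16.9% and 15.4% of all genes, and with shMPZL3 #2, 10 rose and 10 fell, against 9.53% and 5.98%. With both shRNAs 8 rose and 4 fell, against 6.63% and 3.67% of all genes. The grouped count depended on single controls: it was 3 without scr control replicate 1 and 5 without replicate 2, and RUNX2, BMP6 and DPP4 were the calls held whichever of the 9 libraries was left out. DPP4 is counted among the genes that rose in each comparison. It passed the filter on low counts only through its knockdown libraries, so its calls are a description.

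**Figure D4:**
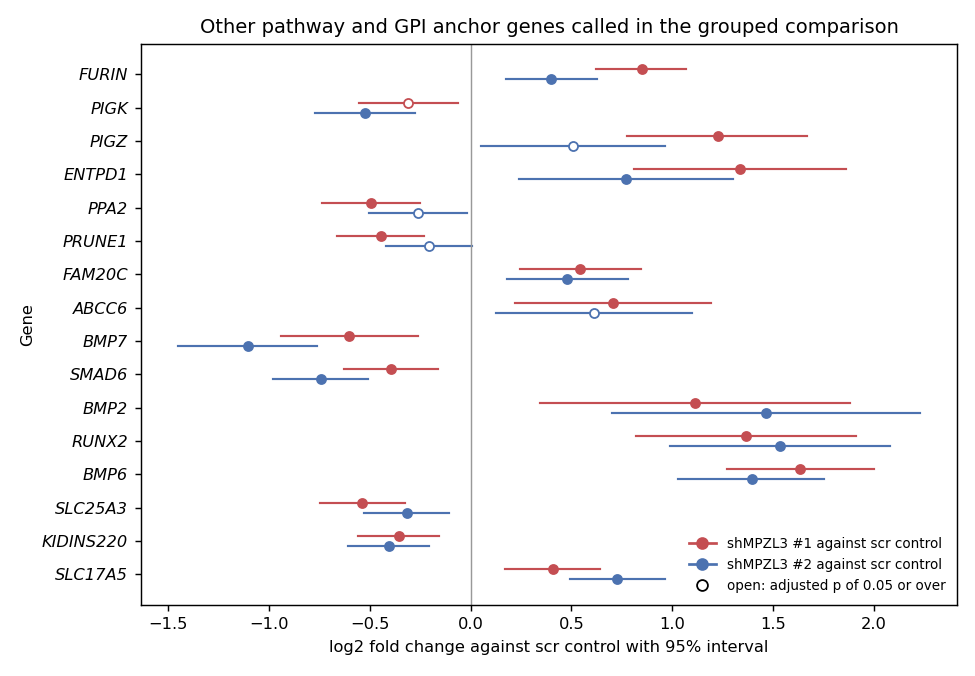
Log2 fold change against scr control (horizontal axis, 95% intervals from edgeR) with each shRNA for the genes of the wider list and of the GPI anchor list that were called in the grouped comparison; open points have an adjusted p of 0.05 or over, and DPP4 is not drawn because its control counts are near 0. BMP6 and RUNX2 lie furthest to the right with shMPZL3 #1 and #2 respectively, and BMP7 furthest to the left with either shRNA.

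Among the 15 osteogenic regulators tested, 3 rose and 2 fell in the grouped comparison, against 9.38% and 6.53% of all genes. RUNX2, the transcription factor that directs bone cell formation, was at 2.27, 3.12 and 5.76 CPM in scr control, 7.53, 10.1 and 10.9 with shMPZL3 #1 and 9.17, 10.3 and 12.5 with shMPZL3 #2. It did not overlap between control and knockdown, as ALPL did not, but in the other direction, and it rose by 1.45 log2 units (SE 0.26; edgeR Benjamini-Hochberg adjusted p = 0.003). SUPT3H on the opposite strand overlaps RUNX2 and had 1822 counts against 1537, so the RUNX2 value is uncertain. BMP6, a bone morphogenetic protein, was at 8.09, 11.5 and 13.3 CPM in scr control, 26.3, 38.2 and 38.0 with shMPZL3 #1 and 26.9, 30.5 and 29.2 with shMPZL3 #2. BMP6 was clear of the controls in all 6 knockdown libraries and rose by 1.52 (SE 0.18, adjusted p = 3e-04). BMP2, another ligand of this family, rose by 1.30 (SE 0.361, adjusted p = 0.0275) on 8 to 103 counts a library, and was not called without scr control replicate 1 or 2 (0.14 and 0.113).

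BMP7, another ligand of the family, went the other way. It was at 421.6, 404.3 and 375.6 CPM in scr control, 333.5, 219 and 239.9 with shMPZL3 #1 and 239.5, 163 and 156 with shMPZL3 #2. Each knockdown library was under the lowest control, and shMPZL3 #2 held the lowest values. BMP7 fell by 0.83 in the grouped comparison (SE 0.191; edgeR adjusted p = 0.0134) and SMAD6, an inhibitor of BMP signalling, by 0.56 (SE 0.128, adjusted p = 0.0115). ID1, a target of BMP signalling with 362 RPKM in scr control, was at −0.33 (adjusted p = 0.13) in the grouped comparison. BMP7 was not called without scr control replicate 1 or 2 (edgeR adjusted p = 0.0776 and 0.0556), nor SMAD6 without scr control replicate 1 (0.0658).

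Of 10 other ectonucleotidase and adenosine genes tested, ENTPD1 and DPP4 were called in the grouped comparison, against 15.9% of all genes. ENTPD1 (CD39) cuts ATP to AMP, the substrate of NT5E, and was at 2.40, 3.26 and 3.82 CPM in scr control, 5.22, 9.10 and 9.63 with shMPZL3 #1 and 5.67, 5.88 and 4.69 with shMPZL3 #2. All 6 knockdown libraries were above the controls, and ENTPD1 rose by 1.08 log2 units (SE 0.275; edgeR adjusted p = 0.0187). Its antisense gene had 1056 counts against 1041 for ENTPD1, so reads from the pair cannot be told apart without strand. Without scr control replicate 1 or 2 its grouped call was lost (edgeR adjusted p = 0.118 and 0.0715). DPP4, a surface peptidase that binds adenosine deaminase, had 2, 2 and 0 counts in scr control, 33, 32 and 30 with shMPZL3 #1 and 33, 32 and 44 with shMPZL3 #2. The controls were at or below the limit of 3 counts, so no fold is given. DPP4 passed the filter on low counts only through its knockdown libraries, so its call is a description and no p-value is given. ADA, adenosine deaminase, fell by 0.70 with shMPZL3 #1 and rose by 0.67 with shMPZL3 #2 (edgeR adjusted p = 0.000427 and 0.00124), with ranges of 88.3 to 103 and 210.5 to 293 CPM around 130.2 to 173 in scr control.

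Of the remaining groups, the mitochondrial phosphate carrier SLC25A3 fell by 0.42 (edgeR adjusted p = 0.0191) and SLC17A5, a lysosomal transporter of sialic acid, rose by 0.58 (0.01). Of 6 intracellular pyrophosphatases and phosphatases, 2 were called lower, against 6.53% of all genes. PPA2 of mitochondria fell by 0.37 (edgeR adjusted p = 0.0451) and PRUNE1, an exopolyphosphatase, by 0.32 (0.0496), while the cytosolic PPA1, with 94.4 RPKM in scr control, was at −0.07 (0.698). FAM20C, the kinase that phosphorylates SPP1, rose by 0.51 (edgeR adjusted p = 0.0192), and FURIN, a protease that cuts many proproteins, rose by 0.64 (0.0112). ABCC6, a transporter linked to ATP release and pyrophosphate supply, rose by 0.66 (edgeR adjusted p = 0.048) on 1001 counts in all libraries. ABCC6, PPA2 and PRUNE1 were called with shMPZL3 #1 but not with shMPZL3 #2. Without scr control replicate 1, none of these 7 genes was called in the grouped comparison (edgeR adjusted p from 0.0646 for SLC17A5 to 0.206 for ABCC6), and leaving out replicate 2 or 3 also ended the calls of SLC25A3 (0.0778 and 0.0729), PPA2 (0.125 and 0.0964), PRUNE1 (0.185 and 0.0906) and ABCC6 (0.134 and 0.109). FAM20C and SLC17A5 were lost without replicate 2 (0.0749 and 0.05) and FURIN without replicate 3 (0.0528). PPA2, PRUNE1 and ABCC6 were lost in most fits that left out a knockdown library, with adjusted p from 0.0546 to 0.108. With no library left out, PRUNE1 was also lost under upper-quartile scaling (0.0534) and with no filter (0.102). It was lost too with a minimum of 10 counts (0.0578) and with a replicate block (0.0676). ABCC6 was lost with no filter (0.0566) and with the block (0.0601), and PPA2 with a minimum of 10 counts (0.0522).

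ALPL and NT5E need a GPI anchor, and of 25 tested genes that build or attach it, 2 were called, against 15.9% of all genes. PIGZ, a mannosyltransferase of the anchor, rose by 0.91 (edgeR adjusted p = 0.0308) and PIGK, part of the enzyme that attaches the anchor, fell by 0.41 (0.0312). Neither was called with both shRNAs, and the median over the 25 was −0.02. Neither was called without scr control replicate 1, 2 or 3 (edgeR adjusted p from 0.0777 to 0.146). PIGZ was also lost without shMPZL3 #1 replicate 1 or 3 (0.0558 and 0.0515) and PIGK without shMPZL3 #2 replicate 3 (0.0592). PIGK overlaps an opposite-strand gene with 1090 counts.

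By pattern over the 9 libraries, the genes most like ALPL among 11833 protein-coding genes compared were FAT3, APOA1, IQGAP2, CPA6 and PEG10. The measure was the root mean square difference of log2 CPM after each gene's control mean was subtracted, and it was 0.371, 0.407, 0.431, 0.439 and 0.443 log2 units. It rests mostly on the size of the fall, by which ALPL was picked. In the ranking of 558 genes by fall given above, FAT3, PEG10, CPA6, IQGAP2 and APOA1 were at 2, 3, 4, 5 and 8. IQGAP2 shared with ALPL a high value in scr control replicate 1 (0.42 and 0.43 above the control mean). The knockdown libraries ran from −1.86 to −1.41 for ALPL and from −2.12 to −1.31 for FAT3, an atypical cadherin.

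**Figure D5:**
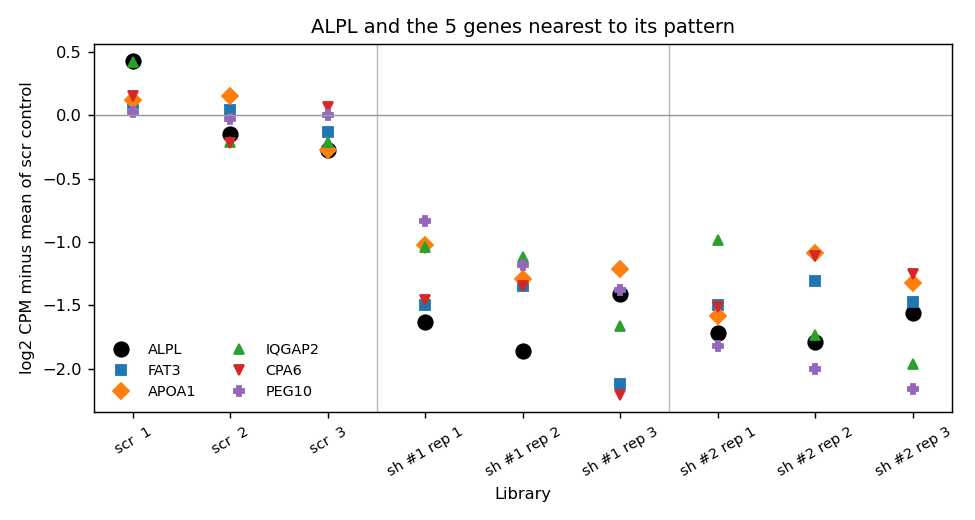
Log2 CPM minus the mean of the 3 scr control libraries (vertical axis) in each of the 9 libraries for ALPL (black circles) and the 5 genes nearest to its pattern. All 6 genes are under −0.8 in every knockdown library, and ALPL and IQGAP2 are the furthest above 0 in scr control replicate 1.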

How the data were processed

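Poly-A RNA of OVCAR4 cells was sequenced in 9 non-directional libraries, and the groups follow the sample titles. The authors deposited raw read counts per gene with gene lengths. HISAT2 2.0.5, featureCounts 1.5.0-p3 and hg38 are named in the submitters' processing notes. All 58735 identifiers, names and positions matched GENCODE 29, and lengths equalled the union of exons in 30 of 30 genes checked.

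Counts were filtered with filterByExpr (16928 genes, 99.85 to 99.88% of counts), scaled by TMM factors and tested with edgeR 4.0.16 (limma 3.58.1, R 4.3.3) by quasi-likelihood with Benjamini-Hochberg adjustment over all tested genes. The grouped comparison used a 2-level fit of all 9 libraries and the others a 3-group fit. SE and intervals belong to the log2 fold change. CPM (with TMM-scaled library totals) and RPKM were computed from the counts. Log2 CPM used a prior count of 2, and RPKM the deposited length. Totals of 15040102 to 27835841 counts set the precision, and the limit of 3 counts covers counting error only. No 2 replicates were alike within sampling noise. Exact permutation tests (Python 3.11.15) were two-sided.

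The members, gene lists and tests were chosen with earlier results of these data known. Genes named are the 8 members, list genes called in the grouped comparison or with both shRNAs in one direction, the 3 list genes of highest RPKM, SLC34A2, KIDINS220, the other alkaline phosphatases, the 5 genes nearest to ALPL in pattern, and MPZL3. ADA, called in opposite directions, was added after its values were seen. Alternatives were RLE and upper-quartile scaling, DESeq2 1.42.0, other filters, a replicate block, the mean of both shRNAs, and leaving out each library.

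The test was tested on simulated data for the 16928 genes. In the grouped comparison it found 41 of 67 genes changed 1.5-fold, 57 of 67 changed 2-fold and 61 of 66 changed 4-fold, with 14 false calls among 16728 unchanged genes. The simulation gave both shRNAs the same change, changed few genes and drew the libraries independently. In the data 15.4% of genes differed between the shRNAs, so these rates need not hold there. Promoter sequences are from RefSeq (GRCh38.p14), and 7 of the 8 genes were searched.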

Additional observations from a re-analysis of the deposited data

Results flagged for a closer look

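In 2 genes a knockdown library stood apart from the other 5 of the 6. ENPP1 in shMPZL3 #2 replicate 3 was the lowest, with a gap to its neighbour of 0.679 of the whole range, and XPR1 in shMPZL3 #1 replicate 2 was the highest, with a gap of 0.636. The check covered the lowest and highest library of each of the 8 genes and pooled the 2 shRNAs. For a single uniform group chance gives such a gap in about 1 of 20, a rate that need not hold here.

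Several genes differed between the 2 shRNAs in the test of the difference itself (edgeR quasi-likelihood, shMPZL3 #2 minus shMPZL3 #1, log2). ANKH differed by −0.531. MPZL3 differed by 1.28, so the targeted gene was less reduced with shMPZL3 #2. ADA differed by 1.38 and moved in opposite directions. ALPP differed by 0.949 on few counts shared with ALPG. ENPP5, of the nucleotide pyrophosphatase family, differed by −0.723, and PIGZ by −0.718. FURIN, BMP7 and SMAD6 moved one way with each shRNA but by different amounts, with differences of −0.448, −0.504 and −0.348. The difference in BMP7 was not called by DESeq2 (adjusted p = 0.123) or without scr control replicate 2 or 3, shMPZL3 #1 replicate 1 or 3 or shMPZL3 #2 replicate 2 or 3 (edgeR adjusted p from 0.0552 to 0.188). That in SMAD6 was not called without any 1 of the scr control replicates, the same shMPZL3 #1 replicates or the same shMPZL3 #2 replicates (0.0574 to 0.136). ALPP lost its call without shMPZL3 #1 replicate 1 or 3 or shMPZL3 #2 replicate 1 or 3 (0.0635 to 0.151), and PIGZ without shMPZL3 #1 replicate 3 or shMPZL3 #2 replicate 1 (0.0746 and 0.0879).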

How the results depend on the processing

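Values are for edgeR unless named, and no called value changed sign under any alternative. Of the 7 members other than ALPL, the grouped count of 3 ran from 1 to 3 over the fits that left out 1 library, and was 1 without scr control replicate 1. The pathway list count of 15 ran from 3 to 15 in the grouped comparison, and that of 20 with shMPZL3 #2 ran from 13 to 21, lowest without scr control replicate 1 in each case. The GPI anchor count of 2 ran from 0 to 3, and was 0 without scr control replicate 1, 2 or 3, where 4, 2 and 2 genes had an unadjusted p under 0.05. The share of all genes called in each of these smaller fits is not given here. Whether the list counts fell more than the calls over all genes was therefore not tested. MPZL3 in the grouped comparison kept a log2 fold change of −1.39 with no filter but lost its call (adjusted p = 0.0675), and it ran from −1.62 to −1.25 with 1 library left out, losing its call without scr control replicate 1, 2 or 3 (0.0804, 0.0834 and 0.0644). Of 1806 alternative values of single genes, 1630 kept their sign and side of the threshold, 28 gained a call and 121 lost one. The ALPL values are among the 1806 but were not tested against a threshold. Their shifts were set against the SD between replicates instead, and all were smaller than it. In 27 values of 14 results that were never called the sign changed, among them ENPP1 with shMPZL3 #2 (−0.06, up to 0.10), XPR1 between the shRNAs (−0.06, up to 0.03) and ALPG and ADA in the grouped comparison (0.07 and 0.14, down to −0.13 and −0.06).

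Same-numbered libraries deviated with r from −0.00143 to 0.218 over 9 pairs. The main fits did not pair libraries by number, and whether the numbers mark pairs was not tested. With a replicate block the count of members called between the shRNAs was 2 rather than 1, SPP1 being added (adjusted p = 0.0473). Over all genes the block changed the grouped calls from 2692 to 2472, those of shMPZL3 #1 from 5462 to 6405, of shMPZL3 #2 from 2625 to 3773 and between the shRNAs from 2599 to 3903. Of the 9 libraries, 8 correlated best with a library of their own number, so the p-values of the main fits may leave out a pairing. Depth limits the low genes, such as DPP4 and BMP2.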
